A study of Mus musculus with 4 samples.

Results

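The genes of the mitochondrial respiratory chain were followed in Th2 cells, the T helper cells that make IL-4, IL-5 and IL-13, cultured with or without the small molecule SH-2251. The members were all genes whose symbol begins with Ndufa, Ndufb, Ndufc, Ndufs, Ndufv, Sdha, Sdhb, Sdhc, Sdhd, Uqcr, Cox4i, Cox5, Cox6, Cox7 or Cox8, each read from its brightest probe that was well above background on every array. Of 93 such symbols in the RefSeq gene table, 78 had a probe named here and 74 were measured on all 4 arrays, out of 11523 genes measured in that way. They comprised 37 subunits of complex I, 4 of complex II, 8 of complex III and 14 of complex IV, and 11 assembly factors (Ndufaf1 to Ndufaf7 and Sdhaf1 to Sdhaf4), which share the prefixes but are not part of the finished complexes and are described apart. The 4 members whose probe did not stand well above background even once were Cox4i2, Cox7b2, Cox8b and Cox8c, all of them isoforms known for restricted tissue expression. Of the 15 symbols with no probe named here, 10 are pseudogenes and the other 5 are Ndufa4l2, Ndufaf8, Ndufb1, Ndufb4b and Ndufb4c.

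Splenic CD4 T cells of female C57BL/6J mice were activated through the T cell receptor and CD28 with IL-2 and IL-4 for 2 days, and kept in IL-2 and IL-4 for a further 3 days. The control cells received no SH-2251. For the treated cells the labels give SH-2251 at 1 µM in the first phase and 1 mM in the second, whereas the methods of the study give another dose, and start from naïve CD4 T cells with an antibody to IFN-γ. Cells of each kind were left unstimulated, called resting here, or were restimulated for 4 h with immobilised anti-TCR-β. Each of the 4 conditions was measured on 1 single-colour Agilent array. No difference below therefore has a replicate check, no test was made, and a difference is described beside the error the scanner software assigns within an array and beside the same measure over all genes. That error, here called the technical SD, was 0.204 for a typical difference and at most 0.234 for a member.

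The respiratory chain passes electrons from NADH (complex I) and succinate (complex II) through ubiquinone and complex III to cytochrome c, and from there through complex IV to oxygen, and the protons pumped on the way drive ATP synthase. Most subunits are encoded in the nucleus and imported, and their genes are known for even expression in nearly all cells, whereas a few subunits of complex IV have a second isoform that belongs to heart and skeletal muscle or to testis. Activated T cells are known to draw on both glycolysis and respiration.

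On each array between 56.0% and 56.7% of probes were well above background and none was saturated. All 7 T cell markers and all 6 Th2 markers examined were well above background on every array. The 5 B cell markers were also above background, with a summed level, relative to the array's 75th percentile, of 3.72 to 5.76 against 219 to 233 for the T cell markers. That B cell sum was higher with SH-2251 in both states (from 4.65 to 5.35 at rest and from 3.72 to 5.76 after restimulation), and the sum of the erythroid markers, 2 of 4 above background on every array, was lower (from 2.34 to 1.40 and from 2.49 to 1.41). The erythroid sum followed Hbb-bt, a beta globin gene, at 0.98, -0.55, 1.18 and -0.38 on the log2 scale, whereas Hba-a1, an alpha globin gene, was higher with SH-2251, at -1.70, -0.55, -2.26 and -0.98 in the same order of arrays (resting control, resting SH-2251, restimulated control, restimulated SH-2251). Of the markers of CD8 T and NK cells Cd8a alone, 1 of 4, was above background on every array, and their sum went from 0.121 to 0.267 and from 0.171 to 0.305 with SH-2251. Of the myeloid markers 3 of 5 were above background, with sums of 2.44 to 2.99. Their part in the differences of the respiratory genes was not tested. In a bulk sample fewer cells of a type and less RNA per cell cannot be told apart.

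Levels are given as log2 intensity minus the 75th percentile of the array, always in the order resting control, resting SH-2251, restimulated control and restimulated SH-2251, and a difference is the gap between 2 such levels. The chain was strongly expressed throughout. Averaged over the arrays, 71 of the 74 members lay above the 75th percentile, against 61.5% of all genes measured, and the median level of the members was 4.34, 4.27, 4.34 and 4.39. Levels of different probes are not compared with one another beyond this count.

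**Figure D1:**
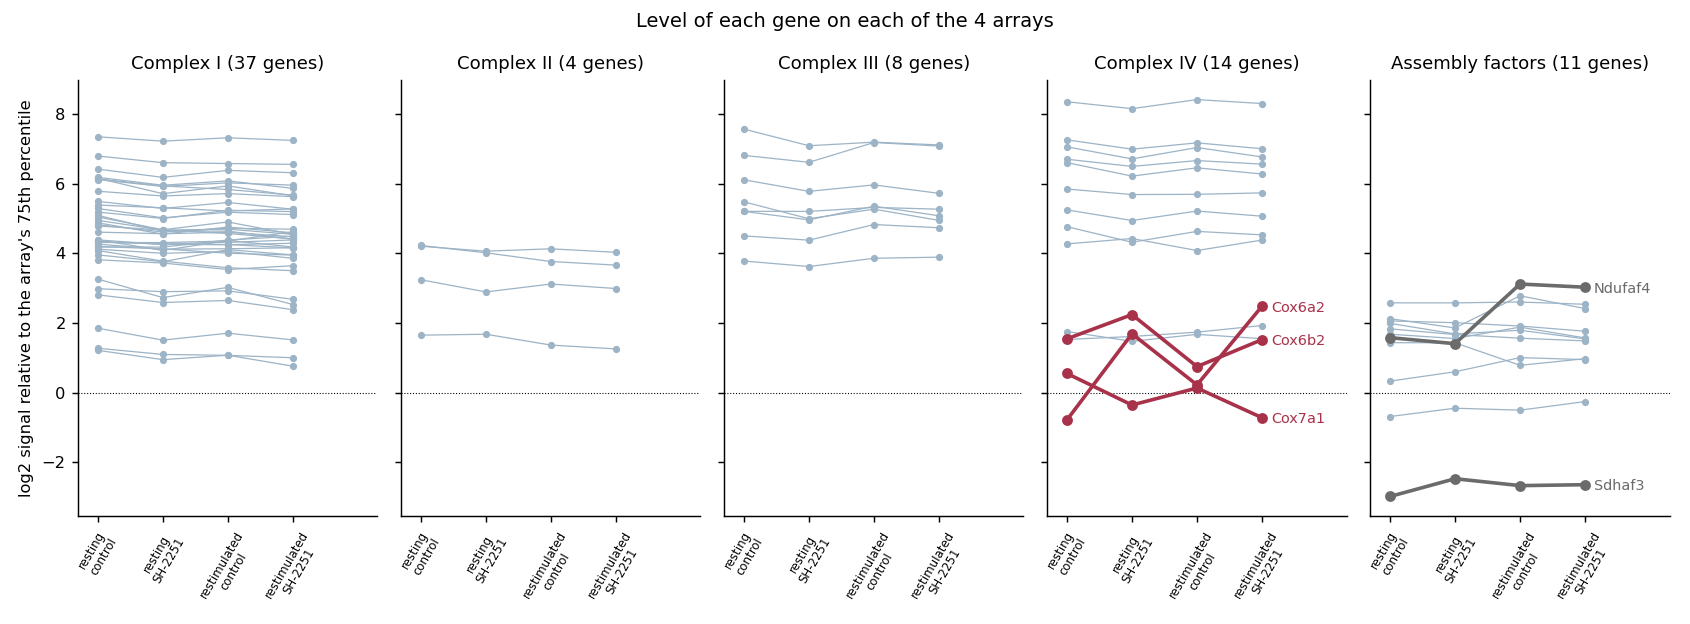
Level of each of the 74 members on the 4 arrays (vertical axis, log2 signal relative to the array's 75th percentile), in panels by complex, with 1 line per gene. The lines run nearly level except for Cox6a2, Cox6b2 and Cox7a1 in complex IV and Ndufaf4 among the assembly factors. Ndufaf6, Sdhaf1 and Sdhaf4 also pass 1.5-fold in control cells on restimulation.

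Most of the chain kept within narrow limits in every condition. Across the 4 comparisons (SH-2251 against control in resting and in restimulated cells, and restimulated against resting cells in control and with SH-2251), 67 of 74 members differed by less than 1.5-fold each time. Over all genes measured, 45.0% passed 1.5-fold in at least 1 of the 4. The 7 members that passed it were the complex IV isoforms Cox6a2, Cox6b2 and Cox7a1 and the assembly factors Ndufaf4, Ndufaf6, Sdhaf1 and Sdhaf4. By its brightest probe, no subunit of complex I, II or III was among them, though other probes of Ndufv3 and Ndufab1, did pass. The 4 comparisons reuse the same 4 arrays, so they are not independent of each other.

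With SH-2251, the members that changed by 1.5-fold were the same 3 isoforms of complex IV in either state. With normexp, another background correction, 12 of 74 members passed at rest beside 23.4% of all genes, and Cox6b2 was not among them (0.44). Cox6a2 and Cox6b2 were higher, and at rest 4.99% of all genes were at least 1.5-fold higher, and after restimulation 5.70%. Cox7a1 was lower, as were 6.15% and 5.50% of all genes. Cox6a2 encodes the heart and skeletal muscle isoform of subunit VIa, a small nuclear-encoded subunit of complex IV. Its level was -0.78, 1.69, 0.22 and 2.48, so that both SH-2251 arrays lay above both control arrays. The difference was 2.48 in resting cells, 5.56-fold, and 2.26 in restimulated cells, 4.79-fold, with a technical SD of 0.20 in either state. Ordered from the highest difference, it ranked 9 of the 11523 genes at rest and 22 after restimulation. Its ubiquitous counterpart Cox6a1 had levels of 8.36, 8.16, 8.43 and 8.31, and differences of -0.20 and -0.11 that were within the technical SD.

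Cox6b2 encodes the testis isoform of subunit VIb, which faces the cytochrome c side of the complex. It stood at 1.55, 2.24, 0.75 and 1.52. SH-2251 cells were 0.70 higher at rest (1.62-fold) and 0.78 higher after restimulation (1.71-fold), but the resting control array was level with the restimulated SH-2251 array, so the treated and control arrays overlapped. The counterpart Cox6b1 had levels of 1.76, 1.47, 1.67 and 1.55, with differences of -0.28 and -0.12. Its resting difference, of the opposite sign, was larger than the technical SD.

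Cox7a1, the heart and skeletal muscle isoform of subunit VIIa, went the other way, with levels of 0.55, -0.36, 0.13 and -0.72. Both SH-2251 arrays lay below both control arrays. The differences were -0.91 (1.87-fold lower) and -0.85 (1.81-fold lower), and the gene ranked 11218 of 11523 in each state. Cox7a2, the isoform present in most tissues, was measured by 2 probes that gave the same differences within 0.09, and its brighter probe stood at 5.25, 4.95, 5.22 and 5.07. The related gene Cox7a2l, whose product joins complexes III and IV into supercomplexes, stood at 4.28, 4.43, 4.09 and 4.39, which gave differences of 0.15 and 0.30. For the pairs Cox4i1 and Cox4i2, Cox7b and Cox7b2, and Cox8a with Cox8b and Cox8c, the second isoforms were never well above background, so these pairs could not be compared.

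**Figure D2:**
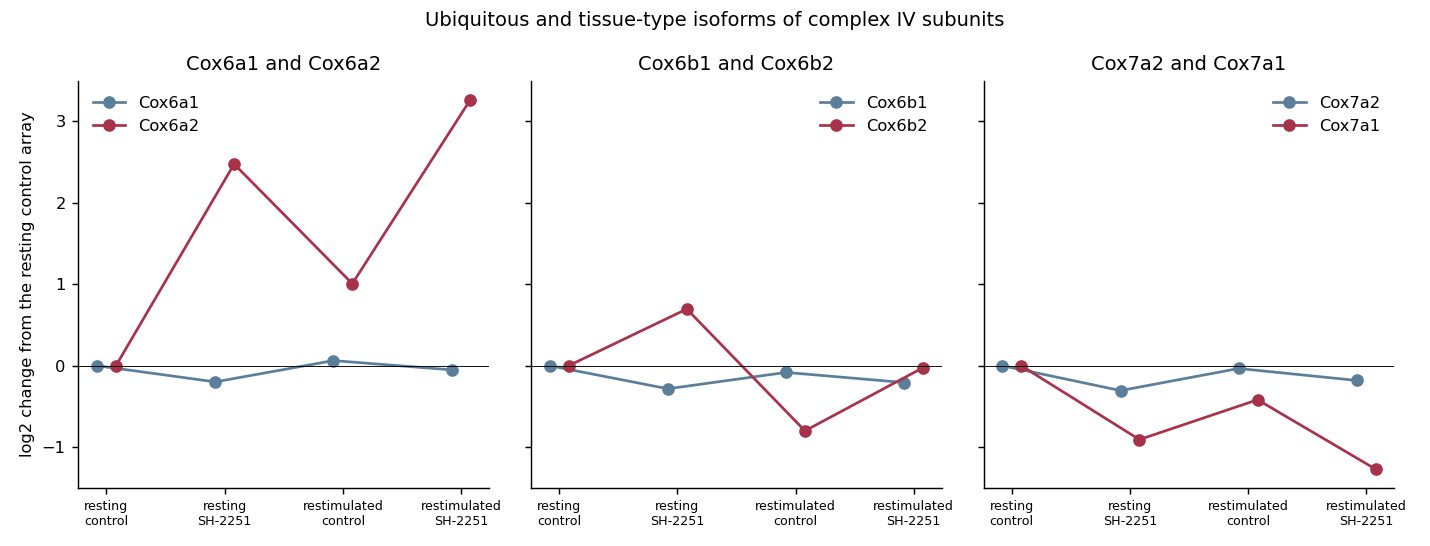
Change of 3 isoform pairs of complex IV from the resting control array (vertical axis, log2; horizontal axis, the 4 arrays), 1 point per array, with the widely expressed isoform in blue and the tissue-type isoform in red. Cox6a2 and Cox6b2 are higher and Cox7a1 is lower on each SH-2251 array than on its control, while Cox6a1, Cox6b1 and Cox7a2 stay within 0.31 of their resting control level.

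The stretches around the start sites are shown for Ndufaf4, Cox7a1 and Cox6b2, 3 of the 7 members past 1.5-fold, and for Cox6a1, the widely expressed counterpart of Cox6a2. The window of Cox6a2 is not shown. They come from RefSeq for the build GRCm38.p6, run 5′ to 3′ on the strand of the gene from 250 bases before the start to 50 bases after it, and were searched on both strands for 3 motifs known from genes of respiration. These were the palindromic NRF1 motif (GCGCA and GCGC with any base between them), an ETS core of the kind bound by GABP (CCGGAAG) and the YY1 motif (AAGATGGCG). Capitals mark each match. Cox6a1 is at chr5:115348909-115349208 (minus strand), Ndufaf4 at chr4:24897833-24898132 (plus), Cox7a1 at chr7:30183921-30184220 (plus) and Cox6b2 at chr7:4753045-4753344 (minus).
Cox6a1: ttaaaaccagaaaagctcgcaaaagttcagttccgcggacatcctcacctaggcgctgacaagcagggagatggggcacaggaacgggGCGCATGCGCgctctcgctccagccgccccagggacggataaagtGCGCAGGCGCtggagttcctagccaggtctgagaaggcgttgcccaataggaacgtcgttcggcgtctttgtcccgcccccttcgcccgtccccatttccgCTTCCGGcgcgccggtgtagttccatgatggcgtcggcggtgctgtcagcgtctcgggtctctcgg
Ndufaf4: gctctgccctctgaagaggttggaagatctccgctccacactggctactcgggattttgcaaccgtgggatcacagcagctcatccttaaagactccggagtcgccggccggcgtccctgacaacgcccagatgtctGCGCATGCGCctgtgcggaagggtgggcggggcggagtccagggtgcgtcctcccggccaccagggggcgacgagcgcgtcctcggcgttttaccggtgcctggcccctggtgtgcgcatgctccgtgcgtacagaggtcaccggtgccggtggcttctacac
Cox7a1: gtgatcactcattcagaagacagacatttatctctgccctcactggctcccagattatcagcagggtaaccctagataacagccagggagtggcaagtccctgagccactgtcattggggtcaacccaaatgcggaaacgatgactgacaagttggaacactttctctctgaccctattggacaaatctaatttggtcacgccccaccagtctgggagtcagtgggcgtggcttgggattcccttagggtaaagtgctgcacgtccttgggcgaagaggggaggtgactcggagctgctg
Cox6b2: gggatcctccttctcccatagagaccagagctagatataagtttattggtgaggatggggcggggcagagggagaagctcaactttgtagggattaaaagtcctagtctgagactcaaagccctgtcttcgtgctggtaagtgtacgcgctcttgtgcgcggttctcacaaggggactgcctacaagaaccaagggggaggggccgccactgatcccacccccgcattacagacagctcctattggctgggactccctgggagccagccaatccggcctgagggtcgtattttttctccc
The window of Cox6a1 held 2 NRF1 matches and 1 ETS match, that of Ndufaf4 held 1 NRF1 match, and those of Cox7a1 and Cox6b2 held none of the motifs. The dinucleotide CG occurred 32 times in the Cox6a1 window and 28 times in that of Ndufaf4, against 7 in Cox7a1 and 10 in Cox6b2, and the median was 20 over the 64 windows of 62 matched members and 7 over 32851 windows of all genes. An NRF1 match was found in 25% of the members' windows and 4.60% of all windows, an ETS match in 23.4% and 8.86%, and a YY1 match in 7.81% and 1.40%. At least 1 of the 3 was found in 50% of the members' windows and 13.6% of all windows. A match describes letters only, and no binding was measured.

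The chain as a whole was slightly lower with SH-2251 in resting cells. The differences of 66 of 74 members were below 0, against 57.4% of all genes, and their median was -0.19 against -0.05 over all genes. These counts take in the assembly factors and Cox6a2, Cox6b2 and Cox7a1. Of the 60 subunits other than those 3 isoforms, 57 were below 0 (median -0.20). For 31 members the decrease exceeded the technical SD, as it did for 3170 of the 11523 genes. The size of this shift depended on how the arrays were scaled: after quantile normalization 52 of 74 members were below 0 and the median was -0.06. In restimulated cells the members' median was -0.10 against -0.06, with 58 below 0 and 16 above, beside 58.0% of all genes below 0, and after quantile normalization 48 were below 0 and 25 above. In all, 56 members were below 0 in both states, beside 46.2% of all genes, 6 were above 0 in both, and 12 differed in sign, none of these beyond the technical SD in both states.

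**Figure D3:**
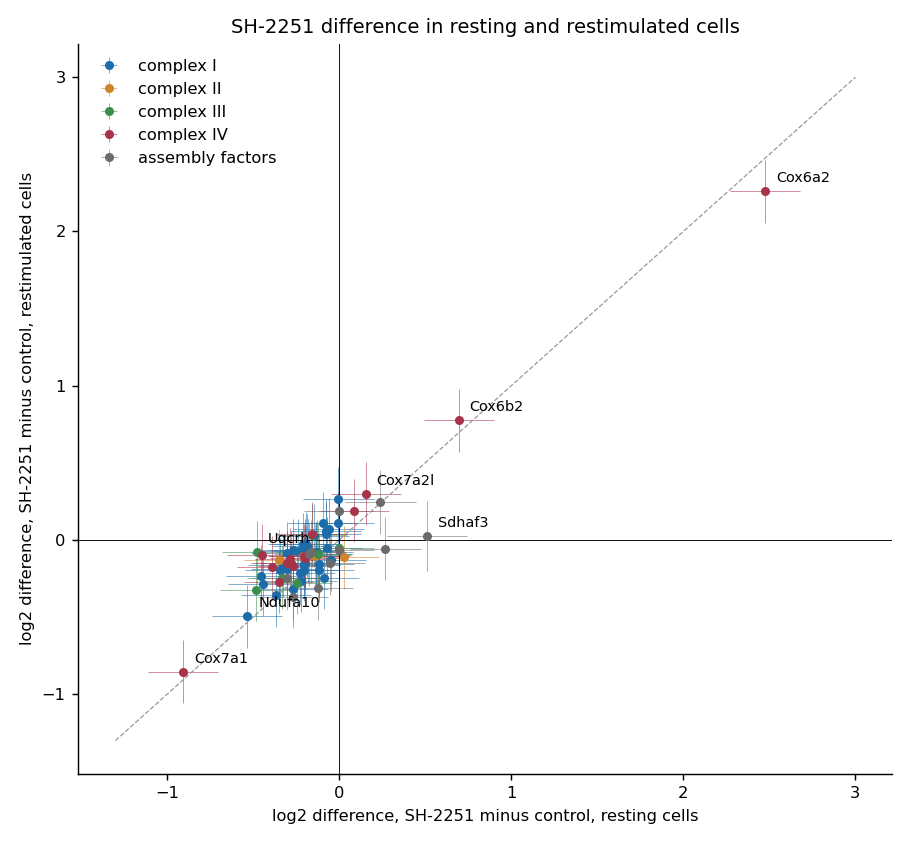
Difference with SH-2251 in resting cells (horizontal axis, log2) against that in restimulated cells (vertical axis, log2) for the 74 members, coloured by complex, with bars of 1 technical SD and a dashed line of equality. Cox6a2 and Cox6b2 stand at the upper right and Cox7a1 at the lower left, and most members crowd just below 0 on both axes.

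Complex I oxidises NADH. In resting cells all 37 of its subunits were below 0 with SH-2251 (median -0.20, lowest -0.53), with 34 below 0 after scaling to the median and 26 after quantile normalization. In restimulated cells 30 of 37 were below 0 (median -0.10), but only 22 were after quantile normalization (median -0.05). The lowest in both states was Ndufa10, an accessory subunit of the membrane arm, with levels of 3.26, 2.73, 3.03 and 2.53 and differences of -0.53 and -0.49. Both SH-2251 arrays lay below both controls.

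The core of complex I followed the same small shift. Ndufv1, which holds the FMN that takes electrons from NADH, stood at 5.05, 4.68, 4.91 and 4.55, differing by -0.37 and -0.36. Its partner Ndufv2 stood at 2.99, 2.90, 2.93 and 2.68 and differed by -0.09 and -0.24. Of the subunits on the path to ubiquinone, Ndufs1, Ndufs3, Ndufs7 and Ndufs8 differed by between -0.34 and -0.07 in resting cells and between -0.20 and -0.05 in restimulated cells. Ndufs8, with the largest resting difference of these, stood at 1.85, 1.51, 1.71 and 1.51. Ndufa4, named as a subunit of complex I but found to associate with complex IV, stood at 4.32, 4.31, 4.36 and 4.63, so its restimulated difference was 0.27 and above the technical SD.

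Complex II is succinate dehydrogenase, which also belongs to the tricarboxylic acid cycle. Its flavoprotein Sdha stood at 1.65, 1.68, 1.37 and 1.26, and its iron-sulphur subunit Sdhb at 4.21, 4.07, 4.13 and 4.03. Of the membrane anchors, Sdhc stood at 3.25, 2.89, 3.12 and 2.99 and Sdhd at 4.23, 4.02, 3.77 and 3.67. The SH-2251 difference exceeded the technical SD for Sdhc (-0.35) and Sdhd (-0.21) in resting cells and for none of the 4 in restimulated cells, where the range was -0.13 to -0.10.

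Complex III passes electrons from ubiquinol to cytochrome c. All 8 of its subunits were below 0 with SH-2251 in resting cells (median -0.22, and 7 of 8 after quantile normalization) and 7 of 8 in restimulated cells (median -0.10). Uqcr11, a small accessory subunit, stood at 5.49, 5.0, 5.27 and 4.95, differing by -0.49 and -0.32. Uqcrh, the acidic hinge protein beside cytochrome c1, stood at 7.58, 7.10, 7.20 and 7.12, with differences of -0.48 and -0.08, and its second probe gave -0.41 and -0.17. The core proteins Uqcrc1 and Uqcrc2 differed by -0.24 and by less than the technical SD in resting cells, and by -0.28 and -0.05 in restimulated cells. The Rieske protein Uqcrfs1 differed by -0.12 and -0.09.

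In complex IV without Cox6a2, Cox6b2 and Cox7a1, 9 of 11 subunits were below 0 in resting cells (median -0.27, 9 of 11 also after quantile normalization) and 8 of 11 in restimulated cells (median -0.11). Cox4i1, the largest of the nuclear-encoded subunits, stood at 7.27, 7.0, 7.18 and 7.01, differing by -0.27 and -0.17. Cox5a and Cox5b differed by -0.21 and -0.39 in resting cells and by -0.10 and -0.18 in restimulated cells. Cox7b stood at 4.77, 4.32, 4.63 and 4.54, with differences of -0.45 and -0.10. Cox7a2l and Cox7c were the 2 above 0 in resting cells.

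The assembly factors were nearer to the bulk of all genes, with median differences of -0.05 and -0.08 with SH-2251, and the resting median was 0.01 after scaling to the median. Sdhaf3, a factor of complex II, stood at -2.99, -2.48, -2.68 and -2.65. The signal of Sdhaf3 was dim, at 70.7, 110, 78.2 and 92.9 intensity units. Its resting difference of 0.51 (technical SD 0.23) followed those of Cox6a2 and Cox6b2 as the highest of the members, and its restimulated difference was 0.03. Sdhaf1, which helps to insert the iron-sulphur clusters of Sdhb, differed by -0.27 and -0.37.

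Restimulation through the T cell receptor moved a large part of the transcriptome and little of the chain. In control cells 14.2% of all genes were at least 1.5-fold higher and 18.1% at least 1.5-fold lower, while 4 of 74 members were higher (Ndufaf4, Cox6a2, Ndufaf6 and Sdhaf1) and 2 were lower (Cox6b2 and Sdhaf4). With SH-2251, 14.2% of all genes were higher and 18.4% lower, and so were 2 members (Ndufaf4 and Cox6a2) and 1 member (Cox6b2). Without the assembly factors only Cox6a2 and Cox6b2 passed 1.5-fold in either culture.

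Among the brightest probes, the largest response was that of Ndufaf4, a factor needed to build complex I, at 1.58, 1.41, 3.12 and 3.03. Both restimulated arrays lay above both resting arrays. The increase was 1.54 in control cells (2.91-fold) and 1.62 with SH-2251 (3.08-fold). A second probe gave 1.62 and 1.55, and the dimmest of the 3 was never well above background. Ndufaf6, which also acts in complex I assembly, stood at 0.33, 0.60, 1.01 and 0.95 and was 0.68 and 0.35 higher. Sdhaf1 stood at 2.13, 1.86, 2.78 and 2.42 and was 0.66 and 0.56 higher, so both of its restimulated arrays lay above both resting arrays.

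Sdhaf4, a chaperone of the flavinated Sdha, moved the other way, at 1.43, 1.43, 0.78 and 0.97. It differed by -0.65 in control cells, 1.57-fold lower, and by -0.46 with SH-2251. It did not pass 1.5-fold in control cells under either normexp setting. The 2 complex IV isoforms that were higher with SH-2251 parted on restimulation. Cox6a2 was 1.01 higher in control cells and 0.79 higher with SH-2251, whereas Cox6b2 was lower, with differences of -0.80 and -0.72. Cox7a1 differed by -0.42 and -0.36 and did not pass 1.5-fold.

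**Figure D4:**
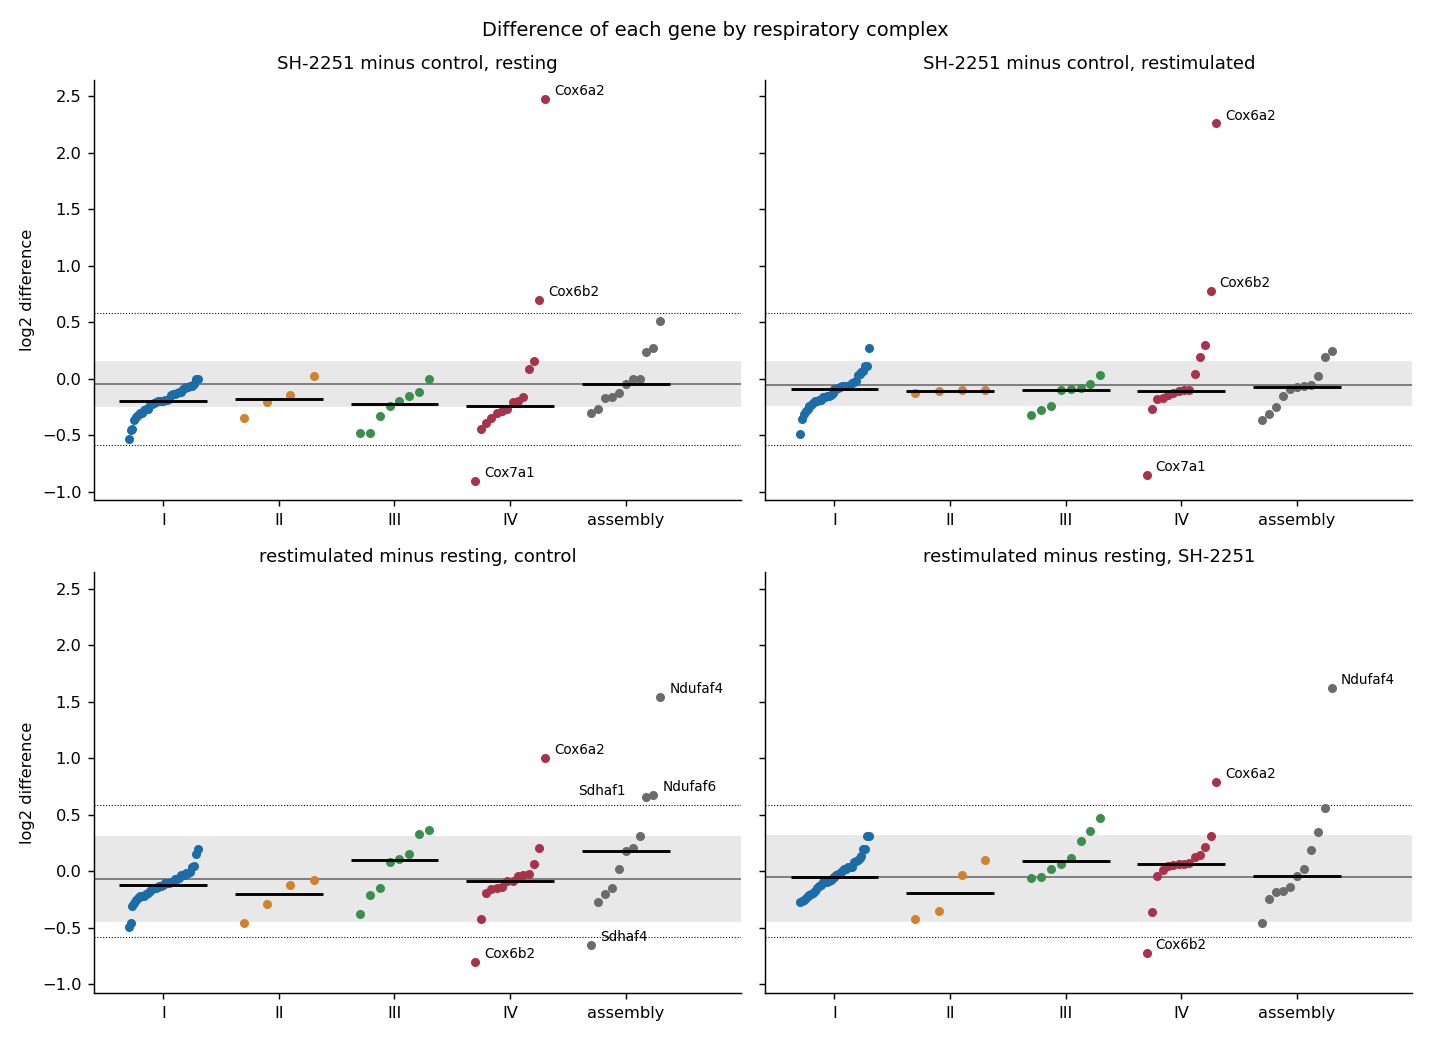
Difference of each member (points, log2) in the 4 comparisons, grouped by complex, with a short black line at the median of each group. The grey line and band mark the median and the interquartile range of all 11523 genes and the dotted lines mark 1.5-fold, and the named points are the members beyond it.

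The complexes did not share 1 direction on restimulation. In control cells 33 of 37 complex I subunits were below 0 (median -0.12), beside 54.8% of all genes, and all 4 subunits of complex II were (median -0.20). Complex III had 5 of 8 subunits above 0 and a median of 0.10, but after quantile normalization 4 were above 0 and the median was -0.01. Complex IV had 11 of 14 subunits below 0 in control cells (median -0.08) and 3 of 14 with SH-2251 (median 0.06), the latter 9 of 14 after quantile normalization. Uqcrq, which binds near the ubiquinone sites, stood at 6.82, 6.62, 7.19 and 7.09 and was 0.37 higher in control cells and 0.47 higher with SH-2251. The Rieske protein Uqcrfs1, at 4.51, 4.38, 4.83 and 4.74, was 0.33 and 0.36 higher. Both kept every restimulated array above every resting array.

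Members that were lower after restimulation included Sdhd, which differed by -0.46 in control cells and -0.35 with SH-2251, and Sdha, which differed by -0.29 and -0.42 by its brightest probe and by -0.01 and -0.15 by its second. Ndufa3, an accessory subunit of complex I at 4.08, 3.78, 3.59 and 3.50, differed by -0.49 and -0.27. With SH-2251 the chain as a whole showed no lean in either direction, with 36 members below 0 and 38 above and a median of 0.01, beside 53.5% of all genes below 0. That split was 57 to 17 after quantile normalization and 12 to 62 after normexp background correction. The reading of the whole chain on restimulation with SH-2251 therefore turned on the processing.

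Whether the response to restimulation differed between the cultures was read as the restimulated minus resting difference with SH-2251 less that in control cells, which is the same number as the restimulated minus the resting SH-2251 difference. It was below 0 for 16 of 74 members, against 47.4% of all genes, with a median of 0.09 against 0.01, and for 27 members after quantile normalization and 3 after normexp. The technical SD of this value was 0.289, and 4 of 74 members exceeded it, beside 2248 of the 11523 genes. Uqcrh (0.40) and Cox7b (0.35) were those above 0, and Sdhaf3 (-0.48) and Ndufaf6 (-0.33) those below. The signal of Sdhaf3 was dim, and its technical SD here was 0.33. All 11 subunits of complex IV other than Cox6a2, Cox6b2 and Cox7a1 were above 0 (median 0.15), and 10 of 11 were after quantile normalization. The response of Ndufaf4 differed by 0.08 and that of Cox6a2 by -0.21, both within the technical SD.

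Of 16 members with 2 or more probes measured on all arrays, 14 had probes within 0.5 of each other in every comparison, a span wider than most of the members' differences. In Sdhaf2, for example, the brightest probe gave a difference near 0 with SH-2251 at rest, and the others gave -0.26 and -0.31. In Ndufv3, the small flavoprotein subunit of complex I, the brightest probe stood at 5.10, 4.64, 4.64 and 4.41, so that restimulation differed by -0.45 in control cells and -0.24 with SH-2251. The next probe stood at 1.78, 1.64, -0.09 and -0.28 and differed by -1.88 and -1.92, which are decreases of 3.67-fold and 3.78-fold. The dimmest stood at 1.14, 0.93, -0.61 and -0.83 and differed by -1.74 and -1.76. All 3 carry the same transcript accession in the files, and which stretch of the transcript each reads was not analysed here. In Ndufab1, the mitochondrial acyl carrier protein that is also a subunit of complex I, the brightest probe gave -0.20 and the second gave -0.72 with SH-2251 in resting cells.

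**Figure D5:**
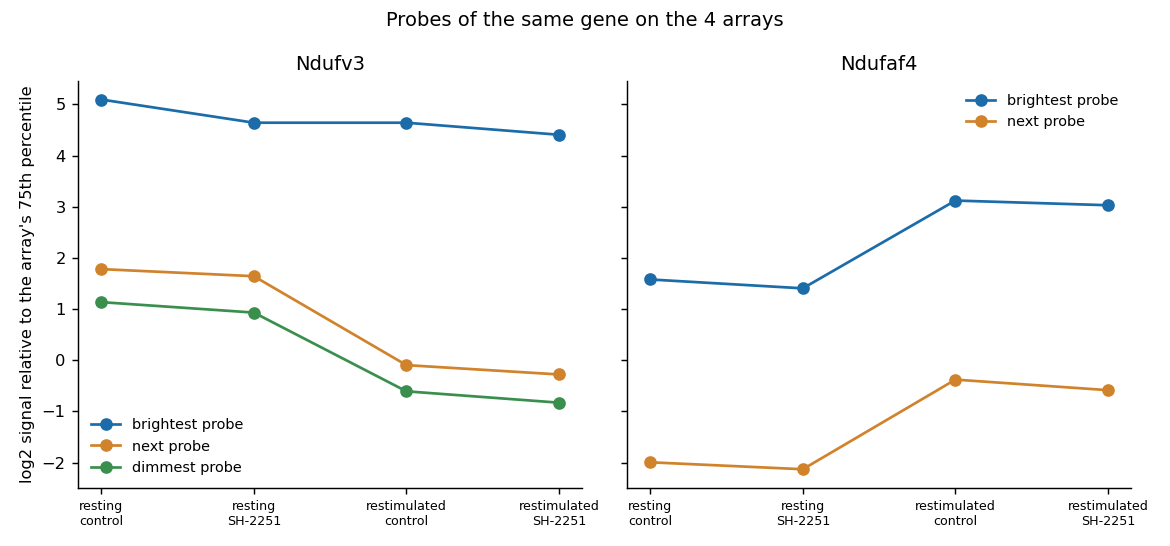
Level of the probes of Ndufv3 (left) and Ndufaf4 (right) that were well above background on all 4 arrays (vertical axis, log2 signal relative to the array's 75th percentile; horizontal axis, the 4 arrays). The 2 dimmer probes of Ndufv3 drop on both restimulated arrays while the brightest differs by -0.45 and -0.24 on restimulation, and both probes of Ndufaf4 rise together.

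The genes around the chain gave a frame for these values. With SH-2251, 57.4% of all genes were below 0 at rest (median -0.05) and 58.0% after restimulation (median -0.06). In at least 1 of the 4 comparisons 45.0% of all genes passed 1.5-fold. With SH-2251 all 18 measured genes of ATP synthase were below 0 at rest (median -0.31) and 16 of 18 after restimulation (median -0.17), with none past 1.5-fold in any comparison. After quantile normalization 15 and 13 of 18 were below 0. Of the 78 genes of the mitochondrial ribosome, which translates the subunits encoded in mitochondrial DNA, 72 were below 0 in resting cells (median -0.22) and 78 in restimulated cells (median -0.20), and 66 and 69 were after quantile normalization. The mitochondrially encoded subunits were not analysed here. Cycs, the cytochrome c that carries electrons from complex III to IV, differed with SH-2251 by -0.61 at rest and by -0.42 after restimulation, and restimulation raised it by 0.52 in control cells and by 0.71 with SH-2251.

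Of 12 measured genes of the tricarboxylic acid cycle, 2 were at least 1.5-fold higher on restimulation of control cells, beside 14.2% of all genes. These were Dld (0.92) and Idh3a (0.69), which were 0.40 and 0.71 higher with SH-2251. Among 13 measured regulators of respiration genes none passed 1.5-fold with SH-2251. Over all genes, 4.99% were at least 1.5-fold higher and 6.15% lower at rest, and 5.70% and 5.50% after restimulation. Restimulation raised 3 of the 13 past 1.5-fold in both cultures, beside 14.2% of all genes in each culture. Gabpb1 rose by 2.51 in control cells and 2.23 with SH-2251, its partner Gabpa by 1.30 and 1.29, and the coactivator Pprc1 by 1.24 and 1.61. Tfb1m, a mitochondrial rRNA methyltransferase, differed on restimulation by -0.43 in control cells and -0.75 with SH-2251, a gap of -0.32 between the responses. Only the value with SH-2251 passed 1.5-fold, beside 18.4% of all genes that were lower there.

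Assembly factors outside the prefixes were read as well. Over all genes, restimulation left 14.2% at least 1.5-fold higher and 18.1% lower in control cells, and 14.2% and 18.4% with SH-2251. At rest 6.15% of all genes were at least 1.5-fold lower with SH-2251. Of 19 measured for complex IV, Cox10, the haem A pathway farnesyltransferase, was higher after restimulation by 1.3 in control cells and 0.97 with SH-2251. Pet100 differed with SH-2251 by -0.77 at rest and -0.41 after restimulation. On restimulation Pet100 differed by -0.59 in control cells and -0.22 with SH-2251. Of 5 measured for complex III, Ttc19 was 1.46 and 1.70 higher after restimulation. Bcs1l, which inserts the Rieske protein, differed on restimulation by -0.58 in control cells and -0.79 with SH-2251, and Uqcc3 by -0.67 and -0.45. For none of the 5 did the responses of the 2 cultures differ by more than the technical SD. Of 9 others for complex I, Tmem126b alone passed 1.5-fold, on restimulation of control cells (-0.68). With SH-2251 its response was -0.57.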

How the data were processed

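The authors deposited 1 Agilent Feature Extraction file per array (version 10.7.3.1 in the header, 10.7 in the labels). The processed intensity values in it had already been background corrected. A further deposited table holds 1 log2 value per probe and array, which was found to equal the log2 intensity minus the array's 75th percentile and served as an alternative. Gene names and mean spot signals of the scanner were not used here.

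Control spots and spots marked as outliers (77 to 106 per array) were left out, spots of a probe were averaged, and log2 intensity minus the 75th percentile of each array (499 to 614 intensity units) was used. Probes were named through their RefSeq accession and the RefSeq table of GRCm38.p6 (27198 of 41174 probes, 18539 genes). A gene was represented by its brightest probe among those well above background on all 4 arrays. A call is a difference of at least 1.5-fold. The technical SD combines the software's error estimates and covers error within arrays only. For the 135 probes with 10 spots each, the SD between spots had a median of 0.0456 to 0.0550 over the arrays. With 1 array per condition (4 arrays) no test, SD between replicates or p-value was computed, so precision is limited by how few arrays there are.

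Named members were those past 1.5-fold, the 3 highest and 3 lowest per comparison, the catalytic core, the isoform pairs and those with probes over 0.5 apart. Not every gene that meets this rule has its values reported here. The members, the gene lists and this rule were chosen with earlier results of these data known. Alternatives were scaling (median, probes above background, quantile), the deposited log2 values, normexp background correction (limma, offset 50), the choice and filter of probes, outlier spots, the assembly factors, and 2 other fold thresholds, a lower one and 2-fold. Normexp had been planned on mean spot signals and was run on the median ones. The computation was tested on simulated data. Normexp was run in limma 3.58.1 under R 4.3.3, and everything else in Python 3.11.15 (pandas 2.3.3, numpy 2.4.6), with figures by matplotlib 3.10.9.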

Additional observations from a re-analysis of the deposited data

How the results depend on the processing

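The median differences of the members depended most on scaling and background. Quantile normalization gave -0.058 with SH-2251 in resting cells, -0.21 for restimulation in control cells and -0.19 for restimulation with SH-2251. Normexp gave -0.44 with SH-2251 in resting cells, 0.27 for restimulation with SH-2251 and 0.36 for the difference between the restimulation responses. Normexp without spots of uneven local background, which left 66 members, gave -0.16, -0.01 and 0.10 for the same measures. The cause was not tested. Under the other settings these medians moved by less than 0.1, and that of restimulation with SH-2251 lay on either side of 0 (-0.03 to 0.02).

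The numbers of members past 1.5-fold were 3 and 3 with SH-2251 (resting, restimulated) and 6 and 3 on restimulation (control, SH-2251). Normexp gave 12 with SH-2251 in resting cells (23.4% of all genes) and 6 on restimulation with SH-2251 (41.0%). Counting every probe gave 6 on restimulation with SH-2251, and leaving out the assembly factors gave 2 in control cells. At a lower fold threshold (0.32 on the log2 scale) the numbers were 17, 7, 13 and 11, beside 17.7% of all genes lower and 12.1% higher, 16.6% and 12.9%, 31.8% and 24.0%, and 31.7% and 24.4% in the same order. At 2-fold they were 1, 1, 2 and 1, beside 2.15% lower and 1.6% higher, 1.82% and 2.11%, 6.91% and 6.55%, and 6.54% and 6.67%.

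Cox6a2 ranged from 2.02 to 2.53 with SH-2251 in resting cells and from 2.11 to 2.30 in restimulated cells over the settings, Cox7a1 from -0.91 to -0.80 and from -0.88 to -0.78, and Ndufaf4 from 1.46 to 1.58 and from 1.58 to 1.76 on restimulation. Cox6b2 fell under 1.5-fold with normexp in resting cells (0.44) and on restimulation with SH-2251 (-0.42), and Sdhaf4 did so on restimulation of control cells with either normexp setting (-0.55 the nearest to 0). No paired analysis was possible because each condition has 1 array.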

Other observations

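The genes beside the isoforms of complex IV in the RefSeq order were read for comparison, chosen for their position. Next to Cox6a2, 9130023H24Rik differed with SH-2251 by -0.84 at rest and by -0.62 after restimulation, and Armc5 by -0.19 and -0.32. Itgad, which overlaps Cox6a2, had no probe named here. Next to Cox6b2, Kmt5c differed by 0.03 and 0.14 with SH-2251 and by -0.75 and -0.64 on restimulation, where Cox6b2 differed by -0.80 and -0.72. Il11, 2 places from Cox6b2, differed by -0.20 and 0.01 with SH-2251 and by 0.63 and 0.84 on restimulation. Next to Cox7a1, Capns1 differed by -0.08 and 0.14 with SH-2251 and Zfp146 by 0.03 and -0.30.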
